A study of Mus musculus with 3 samples.

Results

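Imprinted genes are read mainly from one parental copy, and 34 protein-coding imprinted genes were followed here across 3 arrays of mouse embryonic stem cells. The members were taken from a list of gene symbols, found on the array through the RefSeq accession of each probe. All 34 were on the array, among 20274 named genes, and 56 probes read them. The arrays do not separate parental alleles, so every value is the sum of both copies and says nothing about whether imprinting itself was kept.

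There were 3 groups with 1 array each, all of male embryonic stem cells by the labels: wildtype, Pcgf6KO, in which Pcgf6 was edited with Cas9, and Pcgf6KO+ Pcgf6_flag, edited cells given Flag-tagged Pcgf6 by lentivirus. All were kept with serum and leukemia inhibitory factor on fibroblast feeder cells stopped with mitomycin C, so feeder RNA can be part of every sample. The sources used here do not say whether an edited line is 1 clone or which promoter drives the introduced Pcgf6. Pcgf6 encodes a Polycomb RING finger protein of the repressive complex PRC1.6.

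In mammals, imprinted genes lie in clusters controlled by regions that carry DNA methylation from only the egg or only the sperm. The protein ZFP57, with its partner TRIM28 and the methyltransferase DNMT1, keeps that methylation through early development. Many imprinted genes act on growth of the embryo and placenta: paternally expressed genes such as Igf2 tend to promote growth, and maternally expressed genes such as Cdkn1c and Igf2r tend to restrain it. Cultured stem cells are known for unstable imprints.

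Levels below are log2 of the processed signal minus that array's 75th percentile, so that 0 is the 75th percentile, and differences between arrays are in log2 units. A gene with several probes was read from its brightest one. "At least 2-fold" means a difference of 1 or more in size. With 1 array per group there is no replicate check and no p-value. Single repeated spots of one probe gave differences with an SD of 0.10 for Pcgf6KO against wildtype and 0.11 to 0.12 for the other comparisons, which covers the spots and not the cultures. Different probes have different brightness, so levels are compared across arrays and never between genes.

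Of the members, 31 were well above background on all 3 arrays. Usp29 was above it on none, Kcnq1 on the wildtype array only and Zim1 on the Pcgf6KO array only. Stem cell markers were well above background in 10 of 10 cases on every array, with a summed linear level of 141, 126 and 142 times the 75th percentile in wildtype, Pcgf6KO and Pcgf6KO+ Pcgf6_flag. One label gives the source as muscle. Of 6 muscle markers 4, namely Myod1, Acta1, Myh3 and Des, were well above background on all 3 arrays, and Myog and Ckm on none. The summed levels of the 6 were 4.96, 6.04 and 4.81. Fibroblast markers were above it in 19, 16 and 11 of 20 cases, with summed levels of 59.5, 23.2 and 15.1. Slide 1 held the wildtype and Pcgf6KO arrays and slide 2 the third array. On slide 2 the lowest signal well above background was 103, against 52.7 and 53.4 on the others. Pcgf6 itself had a level of 1.87 in wildtype, 0.84 in Pcgf6KO and 0.42 on the third array, so its 1 probe did not read higher on the third array than on the others. The position of that probe relative to the edit is not known here, and directions that involve the array labelled Pcgf6KO+ Pcgf6_flag rest on its label.

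**Figure D1:**
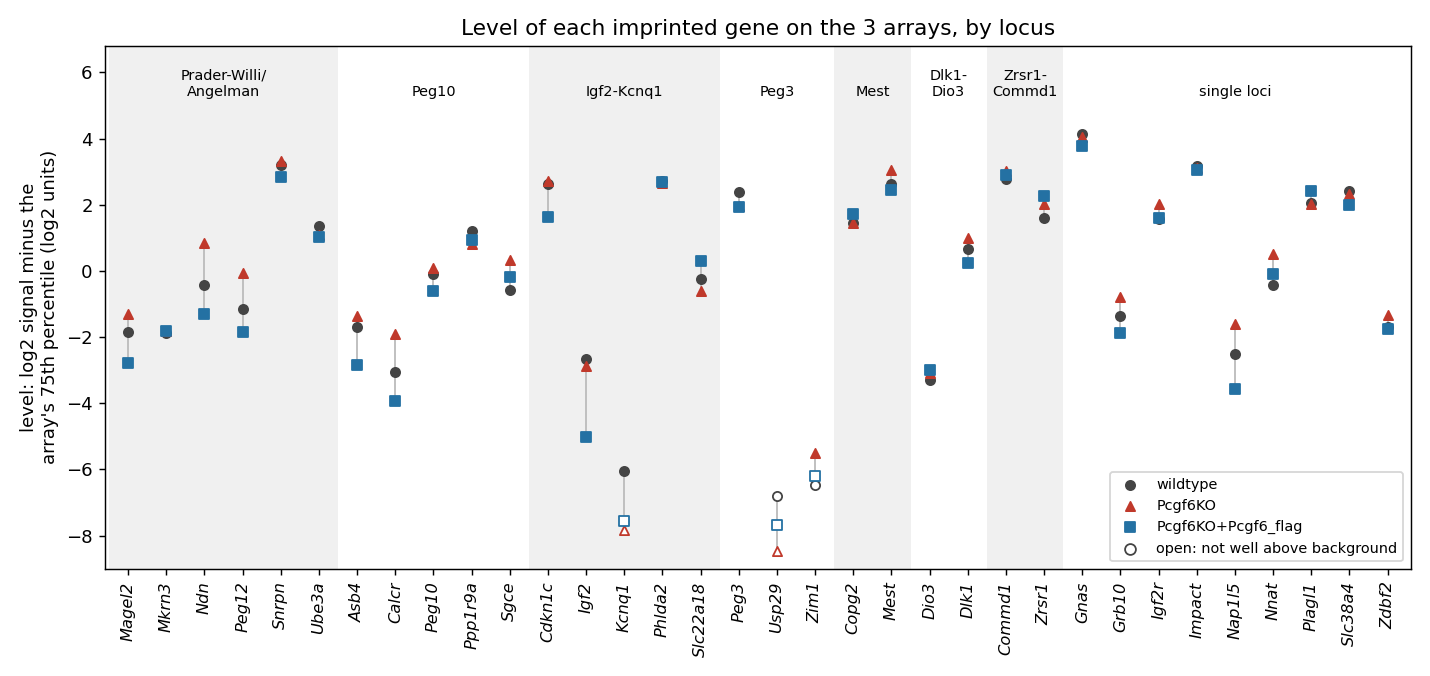
Level of each of the 34 imprinted genes on the 3 arrays, in log2 units relative to each array's 75th percentile and grouped by locus; open symbols are not well above background. Ndn, Peg12, Calcr and Nap1l5 show the Pcgf6KO array (red triangle) highest and the array labelled Pcgf6KO+ Pcgf6_flag (blue square) lowest, whereas Igf2 and Cdkn1c are set apart by low values on the array labelled Pcgf6KO+ Pcgf6_flag.

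Pcgf6KO against wildtype asks which imprinted genes differ between the edited and the unedited culture. Ndn, Calcr and Peg12 were at least 2-fold higher in Pcgf6KO, and no member was at least 2-fold lower. Nnat, Nap1l5 and Sgce followed with differences of 0.95, 0.90 and 0.88. The remaining measured members stayed between -0.42 and 0.57. Thus 3 of the 31 members measured on both arrays were called higher, where 5.8% of 14997 genes were, and 0 were called lower, where 2.81% were. Counting both directions, 8.62% of all genes were called. The members' median difference was 0.20, against -0.02 over all genes, and 20 of the 31 were above 0, against 47% of all genes. Further, 6 members lay above the 90th percentile of all genes, which was 0.66, and 0 lay below the 10th, which was -0.48. With normexp background correction only Ndn kept its call, at 1.33, while Calcr was at 0.99 and Peg12 at 0.94.

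Pcgf6KO+ Pcgf6_flag against Pcgf6KO asks how the levels differ once Flag-tagged Pcgf6 has been introduced, as labelled. Here 9 of 31 members were at least 2-fold lower and 0 at least 2-fold higher, where 8.37% and 5.4% of 14241 genes were, 13.8% in all. The 9 were Ndn, Igf2, Calcr, Nap1l5, Peg12, Asb4, Magel2, Grb10 and Cdkn1c. The median was -0.42, against 0.03 over all genes, and 7 of 31 members were above 0, against 52.4% of all genes. This comparison and the preceding one share the Pcgf6KO array, so a high reading there enters both with opposite sign. Slide and group cannot be told apart in it.

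Pcgf6KO+ Pcgf6_flag against wildtype asks which levels differ between the third array and unedited cells. Igf2, Asb4, Nap1l5 and Cdkn1c were at least 2-fold lower, 4 of 31, and 0 were at least 2-fold higher. Over 14193 genes 4.81% were that much lower and 4.9% that much higher, 9.71% in all. The median was -0.34, against -0.02 over all genes, and 10 of 31 members were above 0, against 48% of all genes. With normexp 2 of the 4 calls remained, Igf2 and Cdkn1c. Slide and group cannot be told apart in this comparison either.

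**Figure D2:**
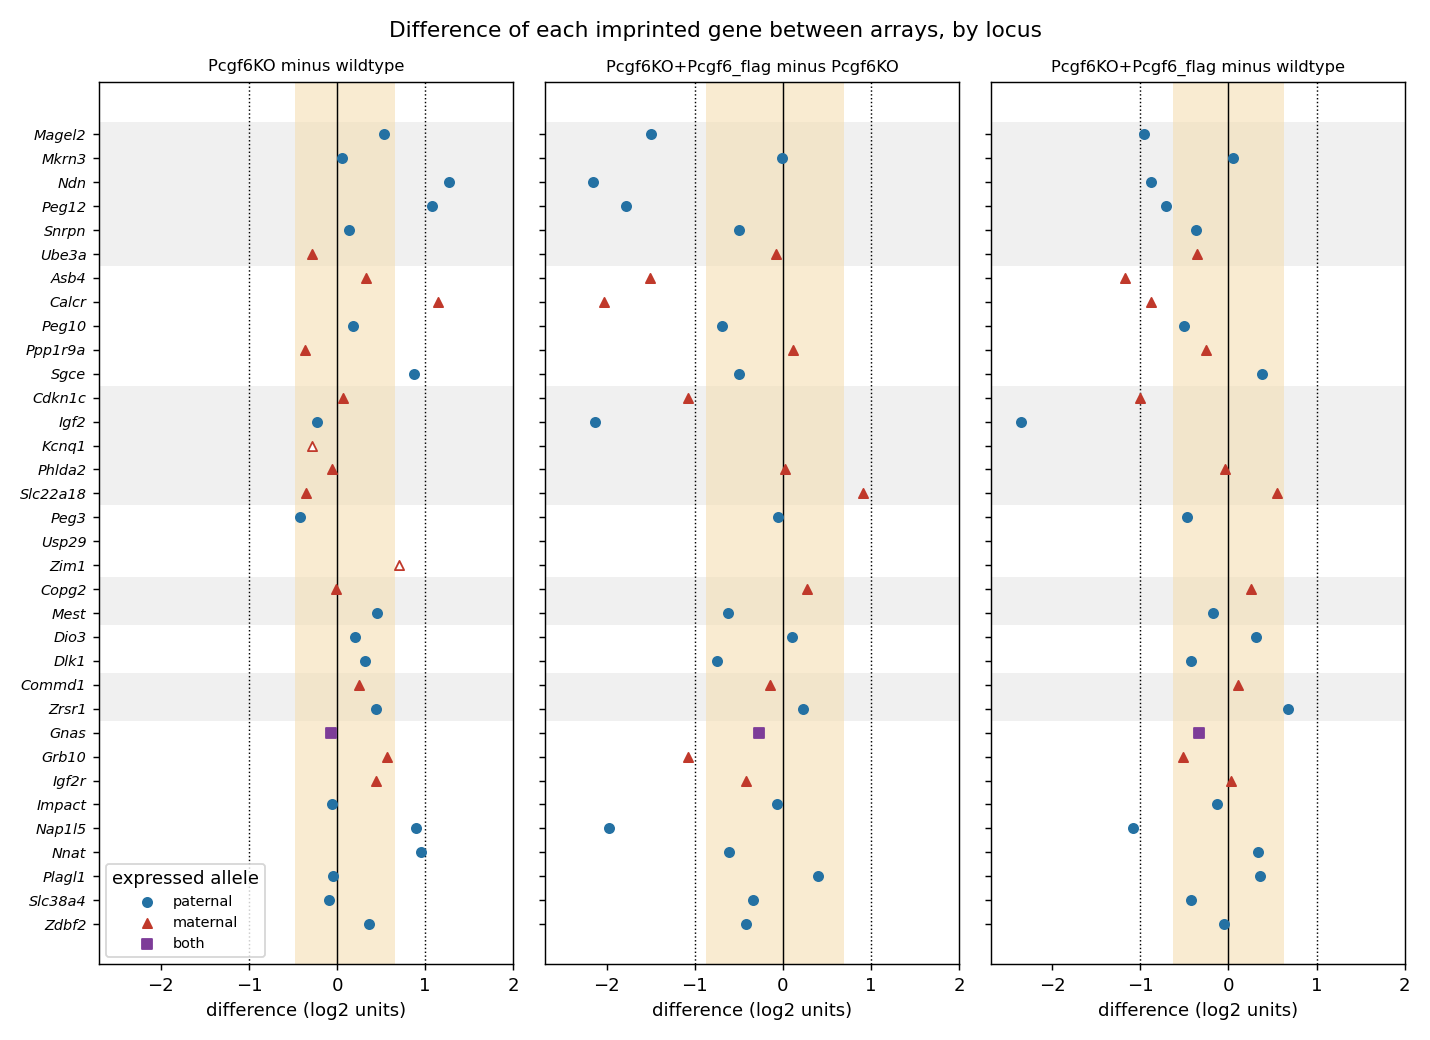
Difference of each imprinted gene in log2 units for the 3 comparisons, grouped by locus as in the plot of levels; blue circles are paternally, red triangles maternally expressed genes, the purple square is Gnas, open symbols are bounds, dotted lines mark 2-fold and the tan band spans the 10th to 90th percentile of all genes. Ndn, Peg12 and Calcr lie beyond the right dotted line in the first panel, and 9 genes lie beyond the left one in the second.

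Split by the parental copy that is known to be expressed, 14 of 19 measured paternally expressed members were above 0 in Pcgf6KO against wildtype, with a median of 0.32. Among maternally expressed members 6 of 11 were, with a median of 0.07. Of all genes 47% were above 0. From Pcgf6KO to the array labelled Pcgf6KO+ Pcgf6_flag the medians were -0.50 for the paternal and -0.15 for the maternal members, and 5 of 19 and 4 of 11 were at least 2-fold lower, where 8.37% of all genes were. The difference between the kinds was not tested. For some maternally expressed members, such as Ube3a, Commd1 and Calcr, imprinting is known mainly from brain, and in stem cells they may be read from both copies.

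The Prader-Willi/Angelman locus on chromosome 7 held the highest member. It contains the paternally expressed genes Ndn, Magel2, Mkrn3, Peg12 and Snrpn and the maternally expressed Ube3a. Ndn, which encodes necdin, a growth-restraining MAGE family protein, had a wildtype level of -0.43, a Pcgf6KO level of 0.85 and a level of -1.31 on the array labelled Pcgf6KO+ Pcgf6_flag. It was thus 2.42-fold higher in Pcgf6KO than in wildtype and 4.46-fold lower on the third array than in Pcgf6KO. Peg12, a relative of the Wnt pathway regulator Frat1, had levels of -1.14, -0.07 and -1.85 in the same order. It was 2.10-fold higher in Pcgf6KO and then 3.43-fold lower. Magel2, another MAGE family gene, which acts in protein recycling from endosomes, had levels of -1.84, -1.30 and -2.79, with differences of 0.54 and then -1.49. On the brightest probe of these 3 genes the Pcgf6KO array was the highest and the third array the lowest. Peg12 has a second, dimmer probe, which differed by 0.43 and then 0.09, and as a mean over both probes its differences were 0.75 and -0.84, short of 2-fold. On the third array the brightest probes of Ndn, Peg12 and Magel2 lay -0.88, -0.70 and -0.95 from wildtype, short of 2-fold. On their brightest probes the neighbours stayed within 2-fold. Snrpn, which encodes a small nuclear ribonucleoprotein, had levels of 3.20, 3.33 and 2.83, the same order as in the 3 genes above, and its dimmest probe differed by 0.96 and then -0.60. Mkrn3, an E3 ubiquitin ligase gene that restrains puberty, was at -1.88, -1.82 and -1.83, and its second probe differed by 0.53 and then -0.82. Ube3a, the ubiquitin ligase gene of Angelman syndrome, was at 1.37, 1.09 and 1.01. Of the 6 genes at this locus 2 were thus called higher in Pcgf6KO, where 5.8% of all genes were. From there to the third array 3 were called lower, where 8.37% of all genes were. Each count includes Peg12. Snrpn shares its transcription unit with Snurf, and its probes may also read that reading frame.

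The sequences upstream of Ndn, Magel2 and Peg12 are shown because these lie close together and their brightest probes had the same order of arrays. PRC1.6 also holds sequence-specific partners. Mkrn3 starts between Magel2 and Peg12 and did not share that order on its brightest probe. Shown are the 250 bases before the annotated start from RefSeq (build GRCm38.p6), 5′ to 3′ on the gene's strand. Searched on both strands were TCCCGC, a core of E2F-type sites, CACGTG, the E-box of MGA and MAX, and TGCCGC, the core that ZFP57 reads when methylated. TCCCGC and TGCCGC share their last 4 bases. Capitals mark matches, and Ndn has none.
Ndn upstream sequence, chr7:62348027-62348276, plus strand: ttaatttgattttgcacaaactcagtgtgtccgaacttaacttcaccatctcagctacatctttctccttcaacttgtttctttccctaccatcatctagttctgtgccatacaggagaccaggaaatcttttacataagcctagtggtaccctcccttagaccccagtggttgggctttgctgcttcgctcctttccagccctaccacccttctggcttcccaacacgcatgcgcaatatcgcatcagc
Magel2 upstream sequence, chr7:62376729-62376978, plus strand: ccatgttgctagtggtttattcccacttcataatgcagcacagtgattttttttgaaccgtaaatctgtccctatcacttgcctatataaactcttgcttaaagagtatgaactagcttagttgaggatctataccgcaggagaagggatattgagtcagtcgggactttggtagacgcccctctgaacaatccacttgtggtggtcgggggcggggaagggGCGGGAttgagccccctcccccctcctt
Peg12 upstream sequence, chr7:62464511-62464760, minus strand: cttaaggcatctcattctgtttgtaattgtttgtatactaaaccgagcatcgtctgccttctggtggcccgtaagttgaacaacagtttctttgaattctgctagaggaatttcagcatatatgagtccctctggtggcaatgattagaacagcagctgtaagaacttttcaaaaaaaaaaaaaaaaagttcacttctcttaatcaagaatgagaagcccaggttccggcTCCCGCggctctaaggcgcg

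Over all members, 29 had at least 1 entry in that promoter table, with 48 upstream windows in all. TCCCGC was found in 29.2% of the members' windows and in 16.9% of 32851 windows of all genes. TGCCGC was found in 16.7% and 8.68%, and CACGTG in 6.25% and 6.02%. Windows can overlap, as do those at Mest and those of Peg3 and Usp29, so the same stretch can be counted more than 1 time. The members' windows were also richer in CpG, with a median of 10 CpG sites against 6, and each of the motifs holds a CpG. Magel2 and Peg12 each held 1 match to TCCCGC and Ndn none, so these letters were not common to the genes shown above. Calcr, which was called higher in Pcgf6KO as were Ndn and Peg12, held 1 match to TCCCGC and 1 to TGCCGC in 1 of its windows and none in another. Members that stayed within 2-fold on their brightest probe also held matches, such as Copg2 and Plagl1 to TGCCGC. For TCCCGC these included Gnas, Ube3a, Dio3 and Peg3. A match is a string of letters and was not tested as a binding site.

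At the Peg10 locus on chromosome 6, Calcr was at least 2-fold higher in Pcgf6KO than in wildtype, and Calcr and Asb4 were at least 2-fold lower on the third array than in Pcgf6KO. Calcr, the calcitonin receptor gene, had levels of -3.07 in wildtype, -1.91 in Pcgf6KO and -3.94 on the third array. It was 2.22-fold higher in Pcgf6KO, and 4.07-fold lower on the third array than in Pcgf6KO. Sgce, which encodes epsilon-sarcoglycan and shares a divergent promoter region with Peg10, was at -0.56, 0.31 and -0.19, lowest in wildtype. Peg10, a placental gene derived from a retrotransposon, was at -0.09, 0.09 and -0.60, within 2-fold throughout. Ppp1r9a, which encodes the actin-binding protein neurabin, was at 1.19, 0.83 and 0.94. Asb4, an adaptor gene of ubiquitin ligases known from placental vessels, read -1.69, -1.36 and -2.86 on its brighter probe, which was 2.83-fold lower on the third array than in Pcgf6KO. Its dimmer probe went the other way, by 0.66, so that the mean over both probes differed by only -0.42. Of the neighbours at this locus that are not members, the paraoxonase genes Pon2 and Pon3 differed by 1.07 and 0.82 in Pcgf6KO against wildtype. From there to the third array they differed by -2.38 and -1.92. Other listed neighbours did not share this order. Casd1 differed by 0.01 and -0.12, and Tfpi2 was at least 7.17-fold lower in Pcgf6KO than in wildtype.

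At the Igf2-Kcnq1 locus on distal chromosome 7, Igf2 and Cdkn1c were at least 2-fold lower on the third array than on either other array. Igf2, the insulin-like growth factor gene, had a wildtype level of -2.66, a Pcgf6KO level of -2.88 and a level of -5.01 on the array labelled Pcgf6KO+ Pcgf6_flag. It was 4.38-fold lower there than in Pcgf6KO and 5.11-fold lower than in wildtype. The lowest level well above background on that array was -5.49, so Igf2 was read near this limit. With normexp the 2 differences of Igf2 were smaller, at -1.48 and -1.64, and still past 2-fold. Cdkn1c, the cell cycle inhibitor gene that encodes p57, was at 2.63, 2.70 and 1.63, which was 2.11-fold lower on the third array than in Pcgf6KO and just past 2-fold lower than in wildtype. The call against wildtype lay at the threshold, and it was lost in 3 of the alternatives, with a smallest difference of -0.77. Phlda2, which limits placental growth, was at 2.71, 2.65 and 2.67 and hardly differed. Slc22a18, a transporter gene, was at -0.24, -0.60 and 0.31, the member with the highest difference, 0.91, from Pcgf6KO to the third array. Kcnq1, a potassium channel gene, was well above background in wildtype only, at -6.05, and at least 1.22-fold lower in Pcgf6KO. No fold is given for it on the third array.

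Noncoding transcripts of this locus are read by probes that the files name directly, and these were looked up after the first values had been seen. H19, the maternally expressed partner of Igf2, was read by 5 such probes. All 5 were lower in Pcgf6KO than in wildtype, with differences of -1.38 to -1.01. On 4 probes measured on both the Pcgf6KO and the third array, H19 was higher on the third array by 0.39 to 0.71. Igf2 differed by -0.22 and -2.13 in these comparisons, so the levels of the pair did not follow each other. Kcnq1ot1, the antisense transcript that silences the Kcnq1 domain, had 4 of 5 probes measured in Pcgf6KO and wildtype, with differences of -0.50 to -0.01. From Pcgf6KO to the third array these probes disagreed, from -0.38 to 1.48. A Kcnq1ot1 probe found through RefSeq was brighter than these, at 1.28, 0.93 and 1.12. It differed by -0.35 in Pcgf6KO against wildtype and by 0.18 from there to the third array.

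At the Peg3 locus on proximal chromosome 7, Peg3, a zinc finger gene active in placenta and brain, had levels of 2.40, 1.97 and 1.92. Its differences of -0.42 and -0.05 were within 2-fold, and -0.42 was the lowest difference of any measured member in Pcgf6KO against wildtype. A dimmer probe of Peg3 gave -0.50 and -0.25. Zim1, a zinc finger gene read from the maternal copy, was well above background on the Pcgf6KO array only, on 2 of its 2 probes. Its brighter probe was at -6.47, -5.51 and -6.21, at least 1.63-fold higher in Pcgf6KO than in wildtype. Usp29, a ubiquitin protease gene, was not well above background on any array. Usp29 and Peg3 start on opposite strands with 163 bases between their starts in GRCm38.p6, and their RefSeq promoter windows share 263 of 300 bases. The Peg3 sequence is shown because both genes start there, with its match to TCCCGC in capitals.
Peg3 upstream sequence, chr7:6730420-6730669, minus strand: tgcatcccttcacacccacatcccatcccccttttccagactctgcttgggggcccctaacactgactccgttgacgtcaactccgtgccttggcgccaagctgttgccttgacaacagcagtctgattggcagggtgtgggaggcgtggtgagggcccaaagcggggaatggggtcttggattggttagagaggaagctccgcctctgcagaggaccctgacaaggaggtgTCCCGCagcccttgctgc

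The single-gene loci held 2 further calls. Nap1l5, a nucleosome assembly protein family gene inside an intron of Herc3, had levels of -2.50 in wildtype, -1.60 in Pcgf6KO and -3.58 on the third array. It was 1.86-fold higher in Pcgf6KO than in wildtype, and 3.93-fold lower on the third array than in Pcgf6KO. Its second probe differed by 1.03 and, as a bound, -1.40 in the same comparisons. Its host gene Herc3 differed by -0.08 and -0.48, a smaller difference than in the nested gene. Herc3 and Blcap, below, were singled out after their values were seen. Grb10, an adaptor gene that restrains insulin and growth factor signalling, was at -1.36, -0.79 and -1.87, which was 2.11-fold lower on the third array than in Pcgf6KO. Without any scaling Grb10 and Cdkn1c missed this threshold, both at -0.97. The upstream sequence of Nap1l5 is shown because this gene stood -1.98 below Pcgf6KO on the third array and has 1 match to TGCCGC, in capitals.
Nap1l5 upstream sequence, chr6:58907127-58907376, minus strand: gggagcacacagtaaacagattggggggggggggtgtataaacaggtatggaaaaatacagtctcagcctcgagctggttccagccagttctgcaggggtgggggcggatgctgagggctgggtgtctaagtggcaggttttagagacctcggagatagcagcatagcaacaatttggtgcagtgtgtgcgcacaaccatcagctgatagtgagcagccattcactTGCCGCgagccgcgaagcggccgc

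Nnat, which encodes the membrane protein neuronatin and lies in an intron of Blcap, had levels of -0.44, 0.51 and -0.10. It was 1.94-fold higher in Pcgf6KO than in wildtype, short of the threshold, and its other probe differed by 0.60. Its host Blcap differed by 0.14. Plagl1, a zinc finger regulator of other imprinted genes, was at 2.06, 2.02 and 2.42 on its brightest probe, but a pair of dimmer probes gave 0.67 and 0.75 in Pcgf6KO against wildtype. Igf2r, the receptor that clears Igf2, was at 1.57, 2.01 and 1.59. Zdbf2 was at -1.71, -1.34 and -1.76. Gnas, which encodes the stimulatory G protein alpha subunit, was at 4.12, 4.05 and 3.79. A Gnas probe for another transcript was not well above background on any array. Impact, a regulator of translation, was at 3.18, 3.12 and 3.05, and the amino acid transporter gene Slc38a4 at 2.41, 2.32 and 1.98. These last 5 genes stayed within 2-fold in each comparison.

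The paired loci held no call. Mest, a hydrolase-fold gene of mesoderm, was at 2.61, 3.06 and 2.44, and its 3 probes gave 0.45 to 0.67 in Pcgf6KO against wildtype. The overlapping coatomer gene Copg2 was at 1.45, 1.44 and 1.71. Dlk1, a Notch-related transmembrane gene of progenitor cells, was at 0.66, 0.98 and 0.23, with a difference of -0.75 from Pcgf6KO to the third array. Its dimmer probe gave -1.88 there. Dio3, which inactivates thyroid hormone, was at -3.29, -3.09 and -2.98. Of the maternally expressed noncoding transcripts of that locus, Meg3 differed by -0.25 and 0.30 and Mirg by -0.35 and -0.18. Zrsr1, a splicing factor retrogene inside Commd1, was at 1.59, 2.04 and 2.27, and Commd1, a regulator of copper and NF-kappa-B, at 2.78, 3.03 and 2.89.

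**Figure D3:**
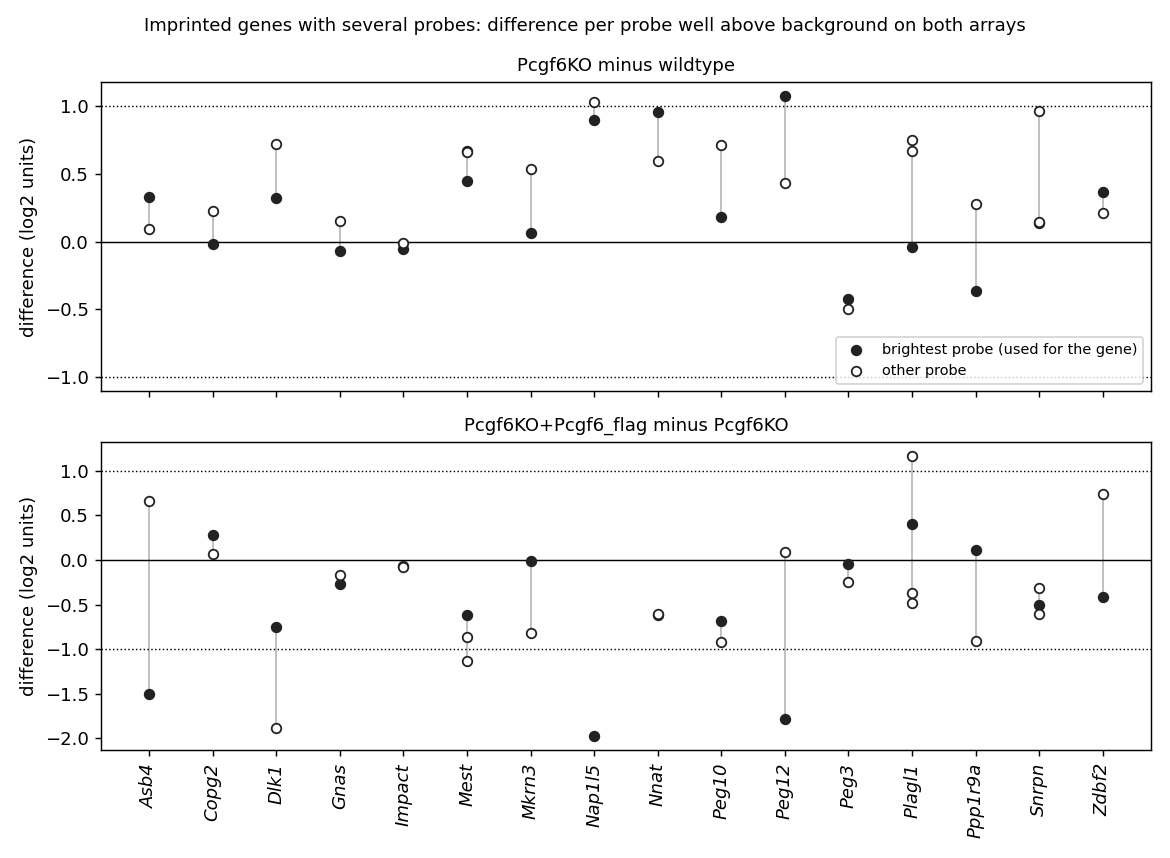
Differences per probe, in log2 units, for the 16 members with several probes measured in Pcgf6KO and wildtype, for Pcgf6KO against wildtype (top) and the array labelled Pcgf6KO+ Pcgf6_flag against Pcgf6KO (bottom); filled points are the brightest probe, used for the gene, and dotted lines mark 2-fold. The points of Peg12, Asb4, Zdbf2, Plagl1 and Ppp1r9a lie on both sides of 0 in the lower panel.

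Probes of one member could disagree. Of 16 members with several probes measured in Pcgf6KO and wildtype, all probes had the same sign in 12, and the median range over probes was 0.30. From Pcgf6KO to the third array it was 10 of 15, with a median range of 0.52. The widest range there was 2.17, for Asb4. The second probe of Peg12 had levels of -5.08, -4.65 and -4.55 and differed by only 0.09 from Pcgf6KO to the third array, against -1.78 on the brighter probe. The second probes of Peg12, Asb4 and Zdbf2 were the dimmer of their pairs, and all were higher on the third array, whose background limit was higher too. The dimmest probe of Plagl1 was also higher there than in Pcgf6KO, by 1.17, and was not well above background in wildtype. Dimmer probes of Peg10, Dlk1, Mkrn3 and Snrpn were lower there than in Pcgf6KO, with -0.92, -1.88, -0.82 and -0.60. The part of background in these differences was not tested. Ndn, Calcr, Magel2, Igf2, Cdkn1c and Grb10 had only 1 probe each, so their calls have no second reading.

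Of 22 measured regulators of imprints 0 were at least 2-fold higher or lower in Pcgf6KO, where 8.62% of all genes were, so that few calls would be met at the general rate. The median was -0.23 and 6 were above 0. Zfp57 had levels of 1.64, 0.91 and 1.81, lower with -0.72 in Pcgf6KO and higher by 0.90 from there to the third array. Tet2, which oxidises methylated cytosine, was at 1.94, 1.14 and 2.32 and was at least 2-fold higher from Pcgf6KO to the third array, by 1.18. Trim28 differed by -0.37 and 0.19. Zfp445, which like Zfp57 binds control regions, differed by 0.07 in Pcgf6KO, and the histone methyltransferase gene Setdb1 by -0.02. Ctcfl, a germline relative of Ctcf known to bind imprinting control regions, was well above background in Pcgf6KO only. It was at least 5.42-fold higher there than in wildtype and at least 3.27-fold lower on the third array than in Pcgf6KO.

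Other genes of imprinted loci differed in both directions. In Pcgf6KO against wildtype 3 of 25 were at least 2-fold higher and 1 lower, where 5.8% and 2.81% of all genes were, and the median was -0.05. The higher genes were Klf14, a zinc finger gene near Mest, with 1.74, Atp10a, a lipid flippase gene near Ube3a, with 1.11, and Pon2. The lower gene was Tspan32 with -1.01. Peg13 and Tfpi2 passed background in wildtype alone, and in Pcgf6KO Peg13 was at least 11.05-fold lower and Tfpi2 at least 7.17-fold. From Pcgf6KO to the third array 4 of 23 were lower, Dcn with -2.64, Pon2, Pon3 and the trophoblast regulator Ascl2 with -1.11, and 1 was higher, Ins2 with 1.74. Klf14 was at least 4.67-fold lower in that comparison. Against wildtype, Osbpl5 with -1.42 and Rtl1 with -1.15 were also among 7 lower genes on the third array, beside Dcn, Pon2, Pon3, Ascl2 and Tspan32.

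Among genes of insulin-like growth factor signalling, Igfbp3, a binding protein gene, was at 0.84, 2.09 and -0.10. It was higher by 1.25 in Pcgf6KO and lower with -2.19 from there to the third array. Igfbp5 was lower with -1.07 in Pcgf6KO, and these were the 2 calls among 15 genes, where 8.62% of all genes were called. From Pcgf6KO to the third array 4 of 14 were lower, namely Irs1, Igfbp3, Igfbp4 and Insr, and Igf1 was higher by 1.14. Of all genes 8.37% were lower and 5.4% higher in that comparison. The adaptor Irs1 differed by -2.41 and the receptor Igf1r by -0.69. Igf2 itself, as given above, was lower with -2.13. On the third array against wildtype 3 of 14 were lower, Igfbp5 with -1.88, Irs1 with -1.80 and Igfbp4 with -1.52. Of all genes 4.81% were.

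Fibroblasts also express several of these genes, and the feeder markers moved as well. In Pcgf6KO against wildtype 10 of 16 measured fibroblast markers lay at least 2-fold below wildtype and 0 above. Of all genes 2.81% were that much lower and 5.8% that much higher. As bounds, 3 more markers were at least 2-fold lower. The median of the measured markers was -1.56, while the median of the imprinted members was 0.20. Only 2 of the 16 measured markers, Col5a2 and Tgfbi, were above 0 in Pcgf6KO against wildtype, by 0.98 and 0.96. On the third array Tgfbi differed by -3.18 from Pcgf6KO, and Col5a2 by at least -2.17 as a bound, the same order of arrays as in Ndn, Calcr and Peg12. These 2 were singled out after their values were seen, and the part of feeder RNA in the higher members was not tested. From Pcgf6KO to the third array 7 of 11 measured markers were at least 2-fold lower, where 8.37% of all genes were, and 2 more were as bounds. The median of the measured markers was -2.08, and the imprinted median was -0.42. In that comparison both lists were lower, and the part of feeder RNA was not tested here either. In such bulk RNA fewer cells of a type and less RNA per cell cannot be told apart. Stem cell markers had medians of -0.15 and -0.03 in the same comparisons. Trophoblast markers had medians of 0.49 and -1.04 over 5 of 6 genes, with summed levels of 5.15, 7.14 and 5.56 on the 3 arrays and Elf5 above background in Pcgf6KO only. Endoderm markers had summed levels of 1.01, 1.04 and 0.43. In Pcgf6KO against wildtype their median was -0.40, and 1 of 6 was above 0. That gene, Dab2, was picked after its values were seen. It differed by 1.27 there and by -3.48 from Pcgf6KO to the third array. The part of trophoblast and endoderm markers in the imprinted differences was not tested.

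**Figure D4:**
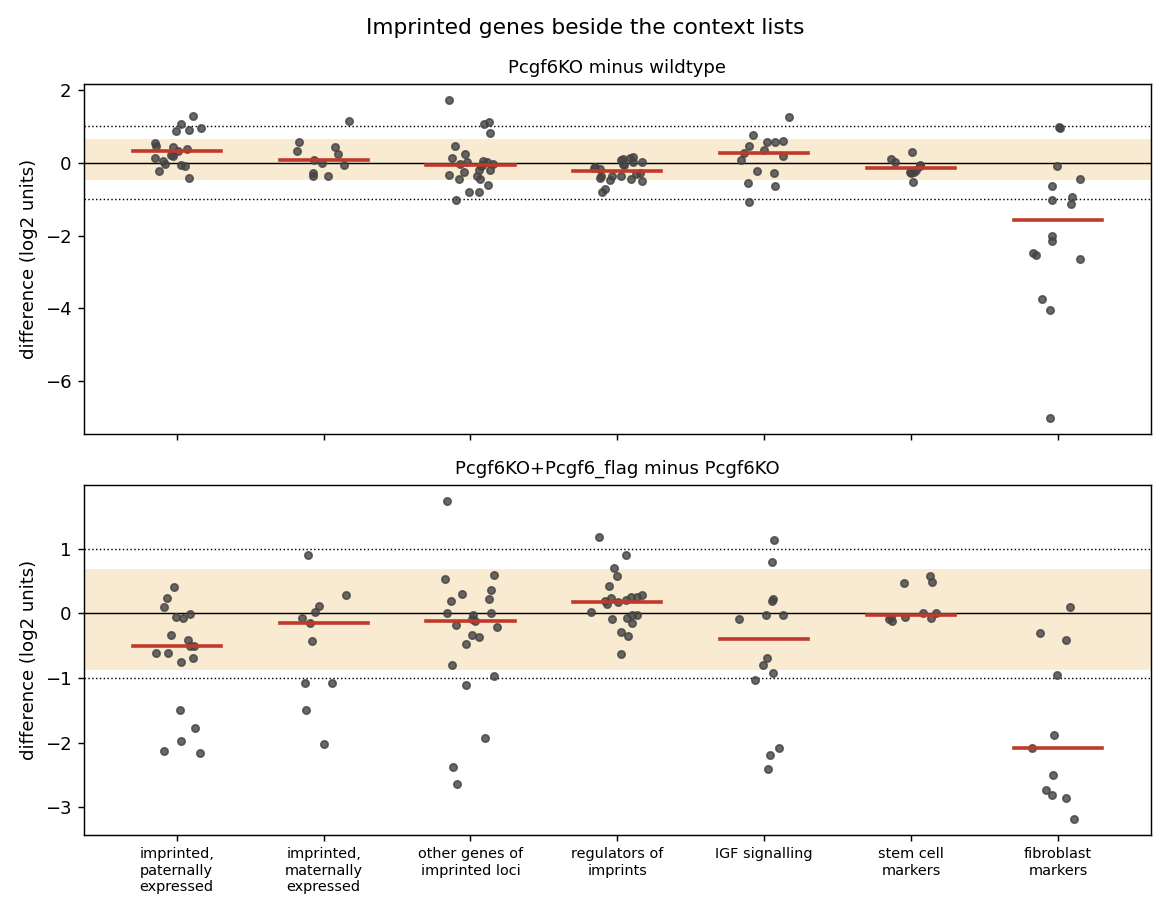
Differences in log2 units of single genes (points) and list medians (red bars) for Pcgf6KO against wildtype (top) and the array labelled Pcgf6KO+ Pcgf6_flag against Pcgf6KO (bottom), with the 10th to 90th percentile of all genes as a tan band; sideways scatter of points carries no value. Fibroblast markers have medians of -1.56 and -2.08, and paternally expressed imprinted genes 0.32 and -0.50.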

How the data were processed

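RNA of the 3 groups was labelled with Cy3 and hybridised to 1-colour Agilent arrays, 1 array per group. Per the file headers, Agilent Feature Extraction 11.5.1.1 made the deposited spot intensity, on a linear scale and background-subtracted, for a design annotated on mm9; the submitters' processing notes name version 10.7. The deposited value table matched the scanner intensity in 55249 of 55249 single-spot probes per array (relative tolerance 1e-06), so it is unscaled and uncentred; its column medians were 243, 273 and 313.

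Control spots and 141, 158 and 192 outlier spots were left out, and spots of a probe were averaged. Intensity was put on the log2 scale and the 75th percentile subtracted within each array. Probes with most spots well above background were taken as measured. RefSeq accessions (GRCm38.p6) named 26762 of 55681 probes. A fold with 1 array near background is a bound: the dim value was replaced by the detection limit of its array (the lowest signal passing the background flag), or kept if brighter than that. The number of arrays limits the precision. Members, lists and the naming rule (Pcgf6, all members, and context genes past 2-fold with up to 4 others per list) were chosen with earlier results of these data known. Tet1, Rian, Zfp264 and Nespas of the context lists were not matched, and not every context gene is named. Calls were tested on simulated data. The noise in those data was only that of repeated spots, so the test covers the calling step and not cultures, feeder cells or slides. Alternatives were normexp (limma 3.58.1, R 4.3.3, offset 50, on the median spot signal in place of the mean), quantile normalization, other scalings, no filter, the mean over probes, outlier spots kept, the deposited table and thresholds of 1.5-fold and 3-fold. Python 3.11.15, numpy 2.4.6, pandas 2.3.3 and matplotlib 3.10.9 were used.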

Additional observations from a re-analysis of the deposited data

How the results depend on the processing

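No paired analysis was possible because each group has 1 array, and for the same reason no array could be left out; slide as a block was not run, since slide 2 holds 1 array. The median difference of the imprinted genes kept its sign in all 3 comparisons under each alternative run. For the third array against wildtype, whose median was -0.34, it was -0.21 with normexp, -0.46 scaled to the median of all probes, -0.18 as a mean over probes and -0.10 in the unscaled deposited table, which was added after the data were seen. That table gave a median of 0.34 for Pcgf6KO against wildtype, and it shifted the medians of all genes to 0.11, 0.13 and 0.22 in the 3 comparisons.

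In Pcgf6KO against wildtype the count of higher members, 3, became 1 with normexp, 6 at 1.5-fold, 0 at 3-fold and 6 unscaled, and that of lower members became 2 with no filter, since dim probes then counted. In the third array against Pcgf6KO the 9 lower members became 5 at 3-fold, and 1 was higher at 1.5-fold and 1 unscaled. In the third array against wildtype the 4 lower members became 2 with normexp, 8 at 1.5-fold, 1 at 3-fold and 1 unscaled, and 1 was higher at 1.5-fold. The causes of these changes were not tested beyond what each setting does. Scaling to the median gave 6 lower members there, and the other counts stayed within 1.5 times. Among all genes called 2-fold, the share higher was 67.3%, 39.2% and 50.5%, against 77.7%, 47.2% and 70.5% unscaled and 64.1%, 32.3% and 39.2% scaled to the median. Of single members 6, 7 and 7 changed sign in the 3 comparisons, none of them past 2-fold; the largest such difference was -0.42, for Zdbf2. Dim probes such as those of Kcnq1, Zim1 and Usp29 limit what can be said of these genes.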
